A study of Mus musculus with 35 samples.

Results

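The Egr and Nr4a genes encode activity-induced transcription factors: Egr1, Egr2, Egr3 and Egr4 are zinc-finger proteins of the early growth response family, and Nr4a1, Nr4a2 and Nr4a3 are orphan nuclear receptors. They were taken by name as 7 of the 14870 genes measured by bulk RNA sequencing of medial prefrontal cortex (mPFC), and every one of the 7 was present in the matrix. The study set mice deficient in Shank3 (KO), a gene for a postsynaptic scaffold, against wild-type mice (WT), each given water as control, antibiotics (abx), acetate, or both (abx_and_acetate). There were 4 KO and 6 WT libraries in control, 3 and 4 in abx, 5 and 5 in acetate, and 4 and 4 in abx_and_acetate. Both sexes were present in every group, 15 females and 20 males in all. Age, strain, the Shank3 exons removed, the antibiotics, and the dose and length of treatment were not stated in the labels. Nor do the labels say that each library came from its own mouse. The p-values therefore describe the spread among these libraries, and replicate numbers only name a library.

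Genes of both families are transcribed within minutes of neuronal firing or growth factor signalling, without the need for new protein. Calcium and kinase signals reach them through CREB, which binds cAMP response elements (CREs), and through serum response factor, which binds CArG boxes. Their products then bind the promoters of slower genes: the Egr proteins bind GC-rich sites and are held back by the co-repressors Nab1 and Nab2, while the Nr4a proteins bind as monomers, and Nr4a1 and Nr4a2 also as dimers with retinoid X receptors. In cortex the families serve as markers of recent neuronal activity and take part in synaptic plasticity and memory. Nr4a2 is also held without stimulation in claustrum and layer 6b neurons.

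Promoters are shown because the results turn on genes that vary together, and because CREs and CArG boxes are the elements through which activity is read. The RefSeq promoter table (GRCm38.p6) held usable entries for 5 of the 7 genes. Stretches before the annotated start of each follow, 5′ to 3′ on the gene's strand, with capitals marking the CRE core TGACG on either strand and CArG boxes.
Egr2 (chr10:67537743-67537833, plus strand): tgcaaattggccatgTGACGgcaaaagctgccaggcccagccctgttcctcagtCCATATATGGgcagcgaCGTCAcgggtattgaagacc
Egr4 (chr6:85513679-85513781, minus strand): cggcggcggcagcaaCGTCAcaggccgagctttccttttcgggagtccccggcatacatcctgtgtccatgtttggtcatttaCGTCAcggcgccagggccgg
Nr4a1 (chr15:101266598-101266825, plus strand): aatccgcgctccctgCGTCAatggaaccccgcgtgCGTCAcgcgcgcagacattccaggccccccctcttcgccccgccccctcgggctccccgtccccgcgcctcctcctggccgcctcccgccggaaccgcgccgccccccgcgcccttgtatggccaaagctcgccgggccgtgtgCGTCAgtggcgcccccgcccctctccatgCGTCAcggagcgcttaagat
Nr4a2 (chr2:57124095-57124218, minus strand): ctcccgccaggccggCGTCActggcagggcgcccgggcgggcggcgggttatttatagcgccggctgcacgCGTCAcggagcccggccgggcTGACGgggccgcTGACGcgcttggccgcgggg
Nr4a3 (chr4:48045059-48045152, plus strand): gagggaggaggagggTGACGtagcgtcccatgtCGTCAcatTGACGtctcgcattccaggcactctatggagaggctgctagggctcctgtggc
In the 250 bases before the start, the CRE core occurred 4 times in each of the 3 Nr4a genes and 2 times in Egr4 and in the Egr2 entry shown, which is 1 of 5 for that gene. Of 32851 promoters, 17.8% held at least 1 CRE core in that window. The Egr2 window also held 1 CArG box, found in 1.47% of promoters. None of the 5 held the full palindrome TGACGTCA (1.55% of promoters) or the Nr4a site AAAGGTCA (1.34%), and Nr4a1 held 1 Egr site GCGGGGGCG (2.57%). The Egr2 entry at the start of the gene held 0 CRE cores and 0 CArG boxes, and another held 0 CRE cores and 1 CArG box. The remaining Egr2 entries cover the same stretch as the one shown, which lies inside the gene. The Nr4a3 stretch printed ends where the gene begins, so its CRE core 147 bases before the RefSeq start is not shown. These matches describe the letters of the windows and were not measured for binding.

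In GRCm38, Egr2 lies on chromosome 10 from 67535475 to 67542188 (plus strand), Egr3 on chromosome 14 from 70077203 to 70082614 (plus), Egr4 on chromosome 6 from 85511121 to 85513589 (minus), and Egr1 on chromosome 18. Nr4a1 lies on chromosome 15 from 101254269 to 101274795 (plus), Nr4a2 on chromosome 2 from 57106830 to 57124003 (minus) and Nr4a3 on chromosome 4 from 48045153 to 48086447 (plus).

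Libraries held 12772454 to 28027869 reads over the measured genes, with a median of 21829753 reads, and RNA integrity numbers of 8.8 to 9.3. The neuronal genes Snap25, Rbfox3, Slc17a7 and Gad1 were at 7.78 log2 CPM or higher in every library. The targeted gene, Shank3, was between 4.07 and 5.11 log2 CPM in all 16 KO libraries, against 7.48 to 8.85 in all 19 WT libraries. The lowest Shank3 values among the libraries labelled WT were those of WT_abx 4 (7.48), WT_acetate 2 (7.80) and WT_acetate 5 (8.08 log2 CPM). The next were WT_abx_and_acetate 1 at 8.22 and WT_control 3 at 8.24, so no wide gap sets WT_acetate 5 apart. In 4 libraries, WT_acetate 2, WT_acetate 4, WT_acetate 5 and WT_abx 3, Y-linked transcripts disagreed with the labelled sex. No control library was in either set, and for WT_abx and WT_acetate against control, and against their KO groups, the counts of members are given with and without each set. WT_abx 4 also held 115.7 CPM of summed choroid plexus markers (3 genes), against 3.54 to 6.15 CPM in the other WT_abx libraries, and 281.7 CPM of meningeal fibroblast markers (6 genes), the highest of all libraries for both lists. WT_abx_and_acetate 4, the shallowest library, held 28.4 CPM of the choroid plexus markers, against 3.97 to 5.31 CPM in the rest of its group. Their part in the values of these libraries was not tested.

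Values are log2 counts-per-million (log2 CPM), as the authors deposited them. Per kilobase of exon and averaged over the 35 libraries, Egr1 had the highest level of the 7, at 80.8 CPM per kilobase, followed by Nr4a1 at 43.4, Egr3 at 22.6 and Egr4 at 20.9. Nr4a3 at 5.43, Egr2 at 3.96 and Nr4a2 at 3.20 CPM per kilobase were lower. The order of abundance was not the order of variation. Egr2 spanned 4.95 log2 units between its lowest and highest library, from 0.57 log2 CPM (33 reads) to 5.52 log2 CPM (1079 reads). Nr4a2 spanned 3.98 log2 units and the other 5 genes between 2.47 and 3.15.

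**Figure D1:**
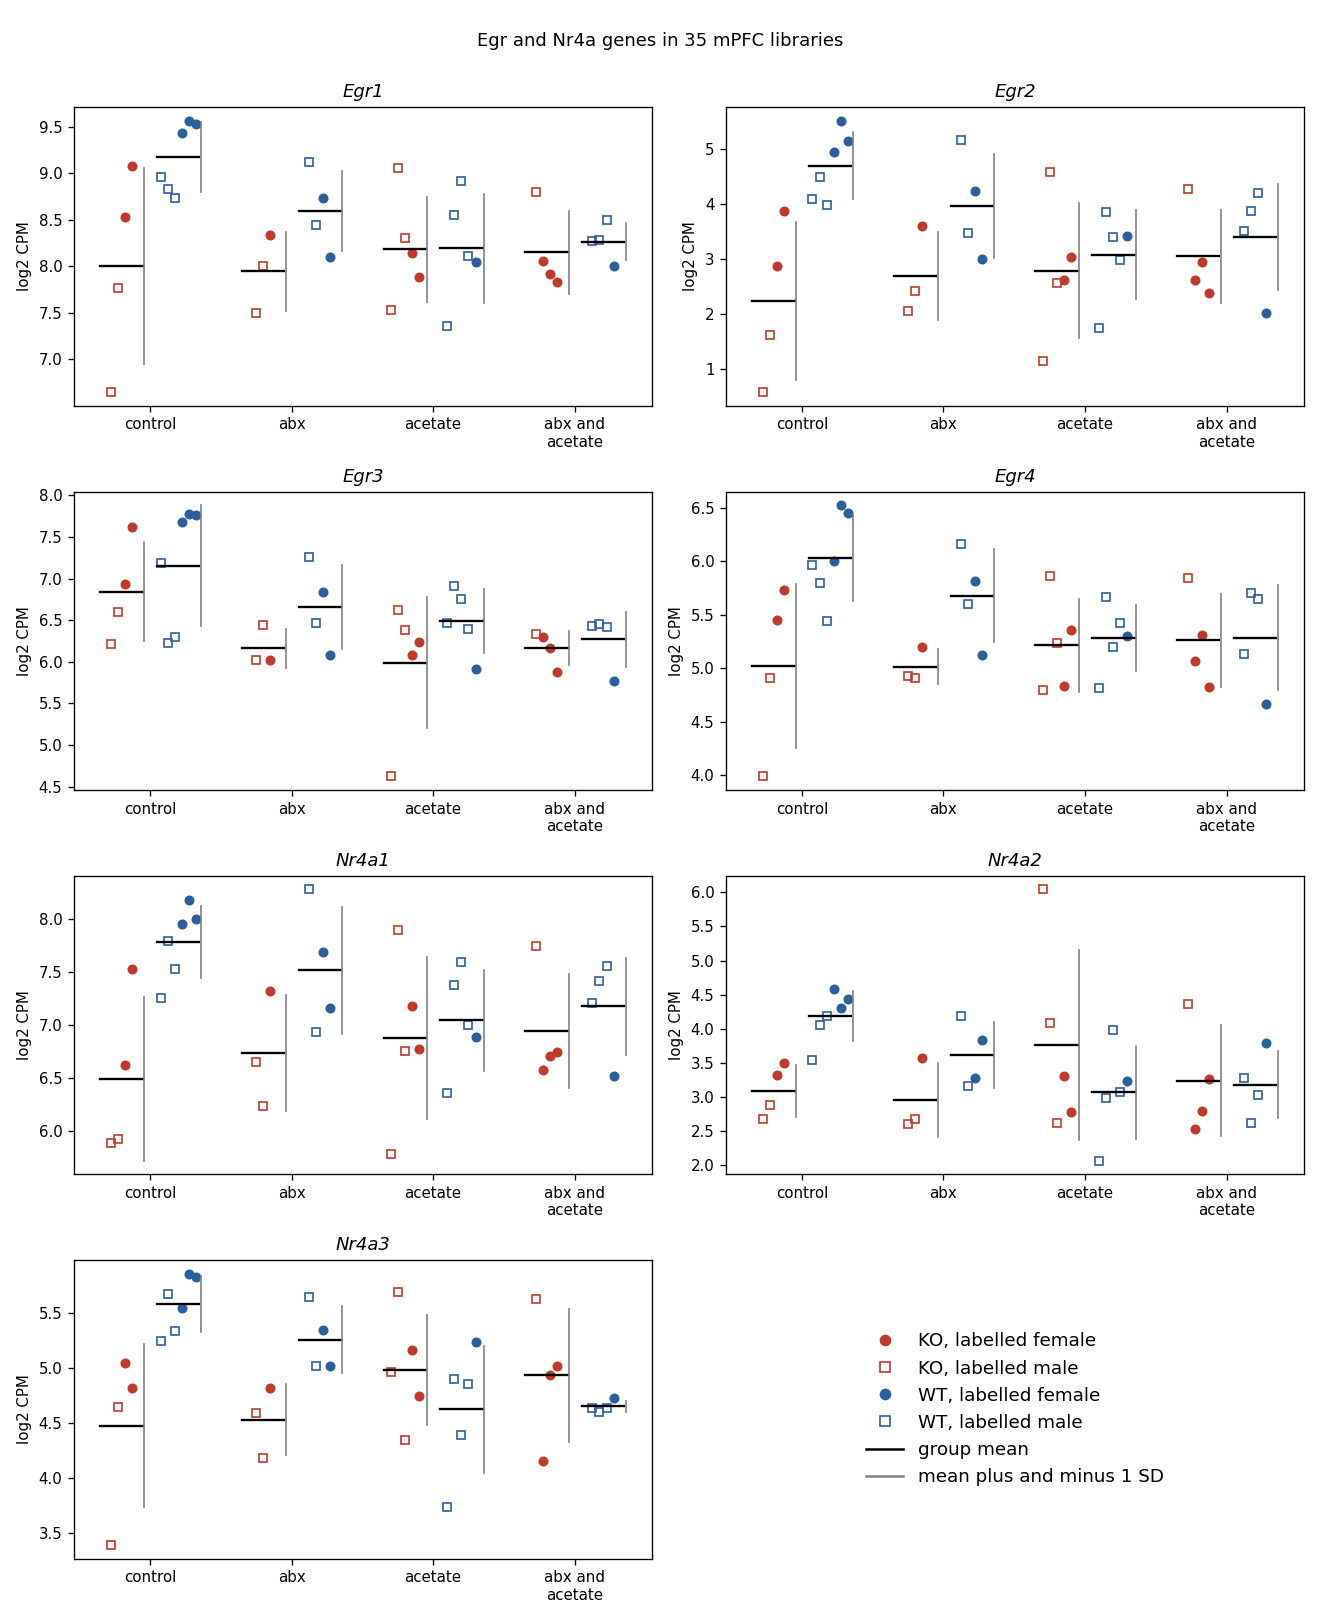
Level of each Egr and Nr4a gene (log2 CPM, vertical axis) in each of 35 mPFC libraries, by treatment, with KO left of WT; circles are labelled female, squares male, black bars are group means and grey lines 1 SD on either side. In control, the KO values of Egr2, Nr4a2 and Nr4a3 lie below every WT value, and under acetate the genotypes overlap in all 7 genes.

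In untreated mPFC all 7 genes were at lower mean levels in KO than in WT, by a log2 fold between -2.47 for Egr2 and -0.31 for Egr3. For Egr2, Nr4a2 and Nr4a3 no KO library reached the lowest WT library. None of the differences passed limma's moderated test after Benjamini-Hochberg adjustment over all 14870 genes. In this comparison 0.0202% of all genes passed that threshold of 0.05.

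Egr2, which is also needed for myelination by Schwann cells, had the largest difference. It was at 0.57 and 1.61 log2 CPM in the KO males and 2.87 and 3.88 in the KO females, against 3.99, 4.09 and 4.49 in the WT males and 4.96, 5.15 and 5.52 in the WT females. KO values lay below WT values in both sexes, and the highest KO female was below the lowest WT male. The log2 fold was -2.47 ± 0.59 (SE; 95% interval -3.67 to -1.26), 5.52-fold lower in KO, with an adjusted p = 0.364 (limma). Among all genes, 6 had a more negative fold.

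Egr1, the member of the family used most often as a reporter of neuronal activity, was at 6.65, 7.77, 8.53 and 9.08 log2 CPM in KO, against a range of 8.73 to 9.56 with a median of 9.19 in the 6 WT libraries. KO_control 4 reached into the WT range and the other KO libraries did not. Its log2 fold was -1.17 ± 0.34 (2.25-fold lower, adjusted p = 0.521, limma). Egr4, which is also needed for male fertility in mice, was at 3.99, 4.91, 5.45 and 5.73 log2 CPM in KO and at 5.45 to 6.53, median 5.98, in WT. Only the highest KO libraries overlapped WT, and the log2 fold was -1.01 ± 0.28 (adjusted p = 0.506, limma). Egr3, which is also needed for muscle spindle development, stood apart from the other members. It was at 6.22, 6.60, 6.93 and 7.61 log2 CPM in KO and at 6.22 to 7.78, median 7.44, in WT, so the ranges nearly coincided. The log2 fold was -0.31 ± 0.33.

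Nr4a1, which antigen receptor signalling also induces in lymphocytes, was at 5.88, 5.92, 6.62 and 7.53 log2 CPM in KO and at 7.25 to 8.17, median 7.87, in WT. KO_control 4 alone overlapped WT, and the log2 fold was -1.30 ± 0.35 (2.45-fold lower, adjusted p = 0.455, limma). Nr4a2, which is needed for midbrain dopamine neurons, was at 2.67, 2.88, 3.32 and 3.50 log2 CPM in KO and at 3.54 to 4.58, median 4.24, in WT. The genotypes did not overlap, although the gap was narrow, and the log2 fold was -1.09 ± 0.45 (2.13-fold lower, adjusted p = 1, limma). Nr4a3 was at 3.39, 4.64, 4.81 and 5.04 log2 CPM in KO and at 5.24 to 5.85, median 5.61, in WT. Again no library overlapped, with a log2 fold of -1.11 ± 0.28 (2.15-fold lower, adjusted p = 0.364, limma).

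Counted against the background of all genes, 6 of the 7 (all but Egr3) had an unadjusted p under 0.05 with a negative fold, as did 2.23% of all genes. All 7 folds were below 0, as were 50.7% of all folds. Groups did not overlap, with KO lower, for 3 of the 7 and for 0.424% of all genes. Within each labelled sex taken alone, all KO values were below all WT values for 6 of the 7 (not Egr3), as they were for 1.49% of all genes. These 7 genes vary together from library to library, so they are not 7 independent observations. In bulk tissue, fewer cells of a type and less RNA per cell cannot be told apart.

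The spread used in that test came from all 8 groups. With only the 10 control libraries in the fit, the folds were the same and the standard errors smaller (0.29 against 0.59 for Egr2). The spread within groups was not smaller in KO_control, whose SD of 1.45 for Egr2 was the largest of the 8 groups. This fit took its term for labelled sex from control libraries alone, with 2 KO libraries of each sex. For Egr2 that term was 1.53, against 0.24 in the fit of all groups. Its part in the calls was not tested. Of the 7, 3 passed over all genes in the fit of control libraries: Nr4a2 (adjusted p = 0.0035), Egr2 (adjusted p = 0.00402) and Nr4a1 (adjusted p = 0.0129, limma for each). In that fit 23 genes passed, 0.155% of all, and between 8 and 27 when single libraries were left out. As each of the 10 libraries was left out, between 2 and 5 members passed: 2 without KO_control 3 and 5 without KO_control 1. Egr2 and Nr4a2 passed in all 10 of these fits. KO_control 1 was the lowest of the 10 control libraries for all 7 genes, and without it the fold from all groups was -0.72 for Egr1, -1.93 for Egr2, -0.66 for Egr4 and -0.76 for Nr4a3, with 5 of the 7 at an unadjusted p under 0.05.

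KO_control 1 also stood apart in other genes. Genes that respond to glucocorticoids, a list of 11, summed to 974 CPM in KO_control 1 and to 346 to 468 CPM in the other KO controls, against 321 to 482 CPM in WT controls. Oligodendrocyte markers (8 genes) summed to 1517 to 3981 CPM in KO and 1974 to 3196 CPM in WT, and pan-neuronal markers (6 genes) to 5990 to 6978 CPM in KO and 6080 to 6927 CPM in WT. The part of these genes in the differences of the Egr and Nr4a genes was not tested.

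Labelled sex went with the level of the family in untreated mPFC. In both genotypes all females were above all males for 6 of the 7 genes (not Nr4a3), as was so for 4.26% of all genes. In the fit of control libraries 3 members passed as higher in females: Egr2 by 1.53 ± 0.29 (adjusted p = 0.0338), Egr1 by 1.04 ± 0.21 (adjusted p = 0.0456) and Egr3 by 1.05 ± 0.18 (adjusted p = 0.0257, limma for each). The same fit called 162 genes by sex, 1.09% of all. Over all 35 libraries no member passed, the folds of female over male ran from 0.02 to 0.24, and 0.0672% of genes were called. Those 35 include the 4 libraries whose Y-linked transcripts disagreed with the labelled sex, none of which is a control library. Egr1 was at 8.53 and 9.08 log2 CPM in KO females and at 6.65 and 7.77 in KO males. Upper layer markers (5 genes) also split these control libraries by sex. They summed to 620 to 673 CPM in WT males and 894 to 922 in WT females. In KO they were at 635 and 732 CPM in males and 754 and 896 in females. Deep layer markers (5 genes) summed to 150 to 178 CPM in WT males and 115 to 132 in WT females. In KO they were at 155 and 171 CPM in males and 116 and 150 in females. The part of cortical layers in the sex differences was not tested. Within a sex, the KO over WT fold of Egr2 was -1.83 in females and -3.10 in males, and 6 members in females and 5 in males had an unadjusted p under 0.05 with KO lower, as did 1.84% and 1.99% of all genes. In the interaction of genotype and sex within control libraries, Egr1 and Egr2 had an unadjusted p under 0.05 with a less negative fold in females, as did 1.37% of all genes. Neither passed over all genes (1.27 ± 0.48 for Egr2, adjusted p = 0.999, limma).

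**Figure D2:**
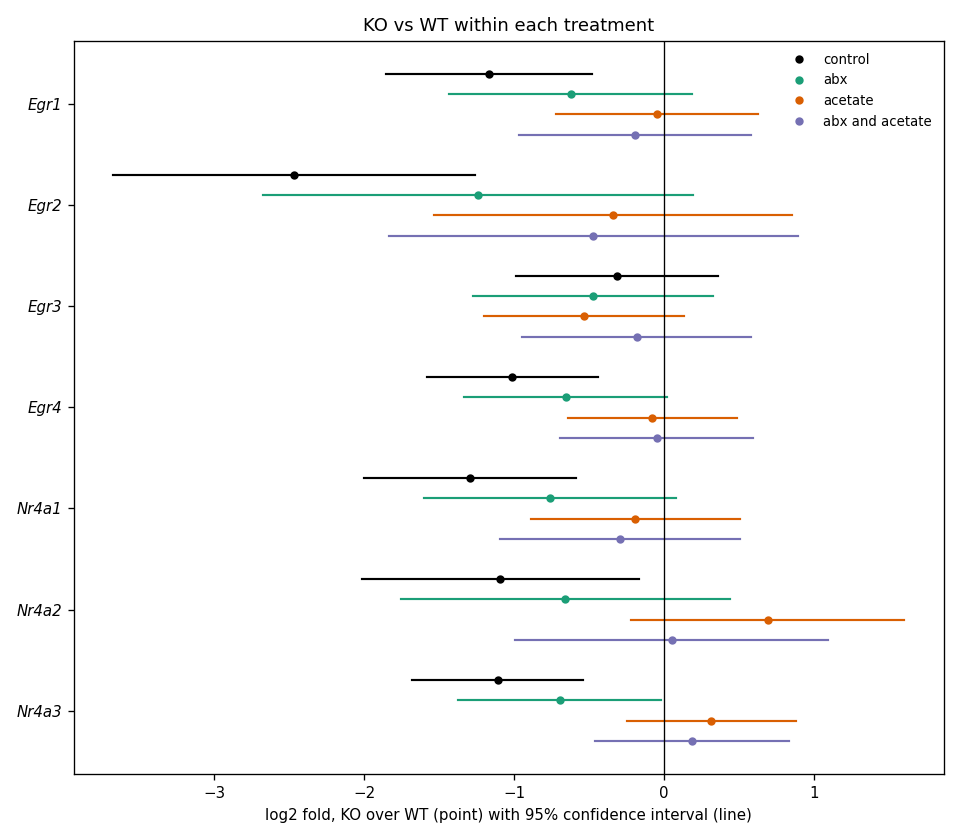
Log2 fold of KO over WT (horizontal axis; points) with 95% confidence intervals (lines) for each gene within each of the 4 treatments, from the limma fit of 35 libraries. The intervals in control exclude 0 for every gene but Egr3, and under acetate and under both treatments every interval includes 0.

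Other genes induced by the same signals mostly had negative folds of KO over WT in control too. Of 20 other activity-induced transcription factors, 13 were lower in KO at an unadjusted p under 0.05, against 2.23% of all genes, and 1 higher. None passed over all genes in the fit of 35 libraries, 17 folds were below 0, and the median was -0.68 against -0.0016 for all genes. The AP-1 subunit genes Junb (-1.36 ± 0.30) and Fos (-1.82 ± 0.47) and the clock gene Per1 (-0.66 ± 0.18) had the smallest p-values. Of 27 activity-induced effectors, 12 were lower at the unadjusted threshold and none higher, with a median of -0.40. They were led by the kinase gene Sik1 (-1.15 ± 0.28), the synaptic gene Arc (-1.94 ± 0.51) and the kinase gene Plk3 (-0.53 ± 0.15). With only the 10 control libraries in the fit, 6 of the 20 transcription factors passed, all lower in KO: Fos, Fosb, Fosl2, Junb, Ier2 and Btg2. In the same fit 4 of the 27 effectors passed, also lower in KO: Arc, Dusp1, Sik1 and Trib1. With the 3 members these make 13 of the 23 genes called there. The lists share the 10 control libraries and much of their variation with the Egr and Nr4a genes.

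Partners and regulators of the 7 proteins were tested in the same way. Nab2, the activity-induced co-repressor of Egr1 and Egr2, was at -0.52 ± 0.16 (adjusted p = 0.65, limma), and it passed in the fit of the 10 control libraries (adjusted p = 0.0278, limma). Nab1 was at -0.14 ± 0.12. The retinoid X receptor genes were at 0.11 ± 0.09 (Rxra), -0.03 ± 0.06 (Rxrb) and -0.32 ± 0.65 (Rxrg). Of 32 upstream regulators, including kinases, CREB and serum response factor with their partners, 1 was lower and 1 higher at the unadjusted threshold, and the median was -0.01. The lower one was Srf, serum response factor itself, at -0.27 ± 0.10, and the higher one was Mkl1, a serum response factor co-activator, at 0.21 ± 0.09. No dimer partner or upstream regulator passed in the fit of control libraries. Mapk3, an upstream kinase, was at -0.30 ± 0.18.

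With antibiotics the 7 folds of KO over WT were again all below 0, as were 49.7% of all genes, and nearer 0 than in control for all but Egr3. They ran from -1.24 ± 0.70 for Egr2 to -0.47 ± 0.39 for Egr3. Nr4a3 was at 4.18, 4.58 and 4.82 log2 CPM in KO_abx and at 5.01, 5.02, 5.34 and 5.65 in WT_abx. It was the only member whose groups did not overlap, which held for 2.69% of all genes, and the only one with an unadjusted p under 0.05 (log2 fold -0.70 ± 0.33, adjusted p = 0.995, limma). That threshold was met, with KO lower, by 2.17% of all genes, and 0.0134% passed after adjustment. Egr2 averaged 2.69 ± 0.80 log2 CPM in KO_abx and 3.97 ± 0.95 log2 CPM in WT_abx (SD, n = 3 and 4). WT_abx 4 and WT_abx 2 lay below the highest KO library. Without the 3 libraries of low Shank3, 3 members had an unadjusted p under 0.05, as did 1.67% of all genes with KO lower, and Egr2 was at -1.61. Without the 4 libraries of discordant Y-linked transcripts none had, against 3.21% of all genes. When single libraries were left out, between 0 and 4 members met that threshold.

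Under acetate and under both treatments the genotypes overlapped in every member, and none had an unadjusted p under 0.05. Without the 4 libraries of discordant Y-linked transcripts, the WT acetate group held only WT_acetate 1 and WT_acetate 3. Nr4a3 then had an unadjusted p under 0.05 under acetate, with a fold of 0.86, as did 3.16% of all genes with KO higher. Without the 3 libraries of low Shank3 none did, with Nr4a3 at 0.59, Nr4a2 at 0.74 and Egr3 at -0.68. With acetate, Nr4a2 had a positive fold of 0.69 ± 0.45 and Nr4a3 of 0.32 ± 0.28. Egr3 had a negative one of -0.53 ± 0.33, and 0.00672% of all genes passed after adjustment. Egr2 was at 1.15, 2.56, 2.61, 3.04 and 4.59 log2 CPM in KO_acetate, against 1.75, 2.99, 3.40, 3.42 and 3.86 in WT_acetate. The KO range enclosed the WT range. The 95% interval of its fold ran from -1.53 to 0.85, which still includes a difference of more than 1 log2 unit. With both treatments the folds ran from -0.47 ± 0.67 for Egr2 to 0.19 ± 0.32 for Nr4a3, and 0.0134% of genes passed. The direction of neither held throughout. Egr2 was at 0.52 with only the groups compared in the fit and at 0.42 in males, and at -1.16 without WT_abx_and_acetate 4. Nr4a3 ran from -0.18 without KO_abx_and_acetate 1 to 0.45 without KO_abx_and_acetate 2.

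A single library carried the positive fold of Nr4a2 under acetate. KO_acetate 1 had 6.04 log2 CPM of Nr4a2, and the other 4 KO_acetate libraries had 2.62, 2.78, 3.30 and 4.08, against 2.07, 2.99, 3.07, 3.24 and 3.98 in WT_acetate. Without it the fold was 0.075. The same library had the lowest Egr3 of all, 4.62 log2 CPM, and without it the Egr3 fold was -0.18. Striatal medium spiny neuron markers (10 genes) summed to 1373 CPM in KO_acetate 1, the highest of its group, which started at 216 CPM, against 239 to 294 CPM in WT_acetate. Oligodendrocyte markers (8 genes) summed to 9431 CPM and layer 6b and claustrum markers (9 genes) to 459 CPM in that library, the highest of all libraries for each. The part of other tissue in its Nr4a2 level was not tested.

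Averaged over the 4 treatments with equal weight, 6 of the 7 (all but Nr4a2) had an unadjusted p under 0.05 with KO lower, as did 2.75% of all genes. As single libraries were left out, that count was lowest at 4, without KO_control 1, WT_control 5, WT_control 6, WT_acetate 2 or WT_abx 1. It was 5 without the 3 libraries of low Shank3 (3.64% of all genes) and 5 without the 4 of discordant Y-linked transcripts (4.14%). None passed over all genes, where 0.0202% did. Egr2 was at -1.13 ± 0.32 (adjusted p = 0.746), Nr4a1 at -0.63 ± 0.19 (adjusted p = 0.892) and Egr1 at -0.51 ± 0.18 (adjusted p = 0.928, limma for each). These averages contain the control comparison, which had the most negative fold of the 4 for every member but Egr3.

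The treatments were next compared with control within each genotype. In WT mPFC the mean of all 7 genes was below control after each treatment. In KO mPFC Egr3 alone had a negative fold after each treatment. All comparisons within a genotype share their control libraries, and the comparisons of KO with WT in control use the same libraries again.

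In WT, acetate went with log2 folds from -1.55 ± 0.56 for Egr2 to -0.62 ± 0.32 for Egr3. Nr4a3 was at 3.74, 4.39, 4.85, 4.89 and 5.24 log2 CPM in WT_acetate, against 5.24 to 5.85 in WT_control. All acetate values were below all control values by a margin too small to show at this rounding. Its fold was -0.90 ± 0.27 (1.86-fold lower, adjusted p = 0.247, limma). Egr2 was at 1.75 to 3.86 log2 CPM in WT_acetate and at 3.99 to 5.52 in WT_control, again with no overlap. Of the 7, 6 had an unadjusted p under 0.05 (all but Egr3), as did 4.84% of all genes with acetate lower. All 7 folds were below 0, as were 49.7% of all genes, and 2 of 7 did not overlap, as did 0.908% of all genes. None passed after adjustment, as 0.00672% of genes did. Without the 3 libraries of low Shank3, 5 members met the unadjusted threshold, against 4.84% of all genes, and without the 4 libraries of discordant Y-linked transcripts 3 did, against 4.81%. Nr4a3 was then at -1.17 and -1.45, and Egr2 at -1.83 and -2.03. Leaving out the 4 libraries kept only WT_acetate 1 and WT_acetate 3 in that group. WT_acetate 1 had the lowest Egr2 (1.75 log2 CPM) and Nr4a3 (3.74 log2 CPM) of the group, so these folds lean on it. When single libraries were left out, between 4 and 7 members met it, with 4 without WT_acetate 1.

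With both treatments in WT, 6 of 7 members (all but Nr4a1) had an unadjusted p under 0.05 and a negative fold, against 7.32% of all genes. Folds ran from -1.24 ± 0.60 for Egr2 to -0.58 ± 0.35 for Nr4a1, all 7 below 0 as were 49.9% of genes. Nr4a3 was at 4.60, 4.63, 4.64 and 4.72 log2 CPM in WT_abx_and_acetate, against 5.24 to 5.85 in WT_control. Those 4 values had the narrowest spread of any group and gene here and did not overlap with control. Egr1 was the other member without overlap, at 8.01, 8.27, 8.29 and 8.50 log2 CPM in WT_abx_and_acetate and at 8.73 to 9.56 in WT_control. Of all genes, 2.24% were lower without overlap. No member passed after adjustment (smallest adjusted p = 0.122, for Nr4a3, limma), although 0.726% of genes, 108 in number, did. That number fell to 4 without WT_abx_and_acetate 1 and to 0 without WT_abx_and_acetate 3, and 2 members met the unadjusted threshold without WT_abx_and_acetate 4. Without that shallowest library the folds were also nearer 0 for several members, with Egr2 at -0.60, Egr3 at -0.60, Egr4 at -0.46 and Nr4a1 at -0.28. Antibiotics alone gave WT folds from -0.73 ± 0.59 for Egr2 to -0.27 ± 0.35 for Nr4a1. All 7 were below 0, as were 48.6% of genes, none met the unadjusted threshold (2 without WT_abx 1, 1 without WT_control 2), and 0% of genes passed after adjustment. WT_abx 4, the library with choroid plexus and meningeal markers, had the lowest Egr1, Egr2, Egr3 and Egr4 of its group. The fold of Egr2 was -0.35 without it and -1.19 without WT_abx 1, and that of Nr4a1 ran from -0.56 without WT_abx 1 to -0.087 without WT_abx 2. Without the 3 libraries of low Shank3, or the 4 of discordant Y-linked transcripts, no member met the unadjusted threshold, against 3.65% and 4.03% of all genes, with Egr2 at -0.35 and -0.78. Against antibiotics alone, both treatments gave folds of -0.29 ± 0.37 for Egr1 and -0.56 ± 0.31 for Nr4a3, with 0% of genes passing.

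The WT folds are also given by labelled sex, without a test of the difference between the sexes. Treated WT females had 8.10 and 8.73 log2 CPM of Egr1 in abx, 8.04 in acetate and 8.01 in abx_and_acetate, each below the 9.43, 9.53 and 9.56 of WT_control females. Treated WT males ran from 7.36 to 9.12, a range that enclosed the 8.73, 8.83 and 8.96 of WT_control males. Some of these sex labels are in doubt. The females WT_abx 3 and WT_acetate 5 and the males WT_acetate 2 and WT_acetate 4 had discordant Y-linked transcripts. The females WT_abx 4 and WT_acetate 5 were also low in Shank3, and the female WT_abx_and_acetate 4 was the shallowest library. The contrast of treated females with treated males therefore cannot be assigned to sex. In females alone 2 members passed with abx, as did 1.01% of all genes (limma). That group held 2 females, of which WT_abx 3 is among the libraries of discordant Y-linked transcripts. WT_acetate and WT_abx_and_acetate held 1 labelled female each, so their calls in females compare a single treated library with the controls and are not read here. In males alone no member passed, and the fold of Egr2 with antibiotics was 0.13.

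In KO, acetate gave folds of 0.67 ± 0.47 for Nr4a2, 0.10 without KO_acetate 1, and -0.84 ± 0.34 for Egr3. Egr3 was at 4.62, 6.08, 6.23, 6.38 and 6.62 log2 CPM in KO_acetate, against 6.22, 6.60, 6.93 and 7.61 in KO_control. It was the only member with an unadjusted p under 0.05 in a KO treatment comparison (adjusted p = 0.309, limma), where 6.44% of all genes had one with acetate lower, and its fold was -0.51 without KO_acetate 1. No member met the threshold without KO_acetate 1, nor without KO_control 4. After adjustment 0% of genes passed. Antibiotics gave -0.66 ± 0.39 for Egr3 and 0.50 ± 0.70 for Egr2, with 0.0134% of genes passing. Both treatments gave -0.71 ± 0.37 for Egr3 and 0.76 ± 0.65 for Egr2, with 0% of genes passing against control and 0% against antibiotics alone.

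The other activity-induced genes were set beside the members for the same comparisons. With acetate in WT, 12 of the 20 other transcription factors had an unadjusted p under 0.05 with acetate lower, against 4.84% of all genes. None had one with acetate higher, and the median was -0.49. The 3 smallest p-values were those of Fosl2 (-0.86 ± 0.23) and Fosb (-1.08 ± 0.30), both AP-1 subunits, and Per1 (-0.60 ± 0.17). Of the 27 effectors, 12 were lower at that threshold and none higher, with a median of -0.49, led by the prostaglandin synthesis gene Ptgs2 (-1.06 ± 0.26), Tiparp (-0.67 ± 0.21) and Sik1 (-0.85 ± 0.27). With both treatments in WT, 7.32% of all genes were lower at that threshold. There 7 of the other transcription factors were lower and 1 higher, and 10 effectors were lower and none higher. Fosl2 (-0.95 ± 0.24), the synaptic scaffold gene Homer1 (-0.89 ± 0.23) and Per1 (-0.68 ± 0.18) led them. With acetate in KO the medians were 0.01 for the transcription factors and 0.08 for the effectors. None of the list genes passed after adjustment in these treatment comparisons.

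**Figure D3:**
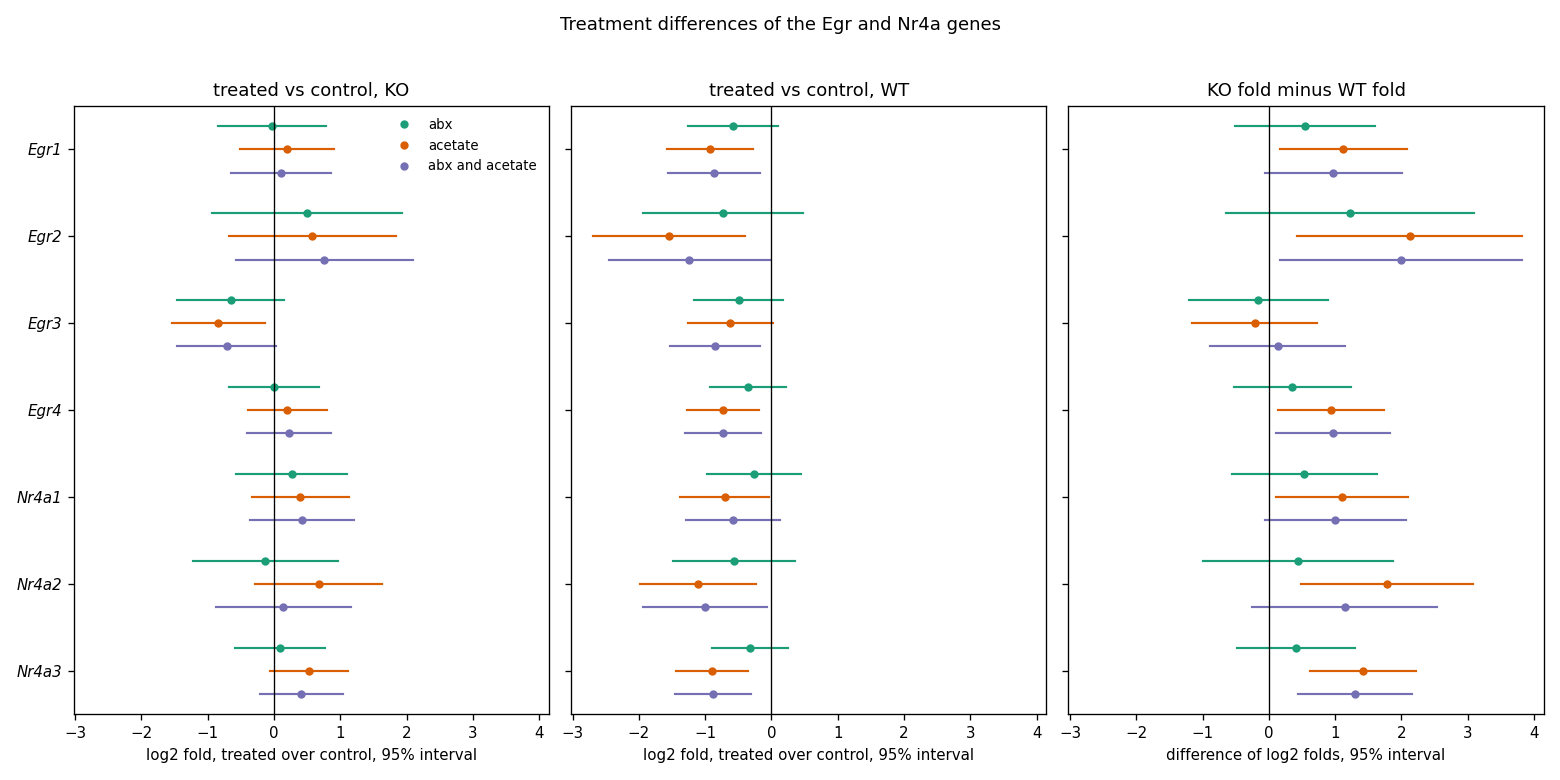
Log2 fold of each treatment over control in KO (left) and in WT (middle), and the KO fold minus the WT fold (right), with 95% confidence intervals from the limma fit. WT folds lie at or below -0.27 for all 7 genes, and the differences between genotypes under acetate exclude 0 for 6 genes, all but Egr3, before adjustment over genes.

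The difference of the treatment folds between genotypes was tested directly as an interaction. For acetate, 6 of the 7 had an unadjusted p under 0.05 with a higher fold in KO than in WT, as did 2.04% of all genes. The largest was 2.13 ± 0.83 for Egr2, and the smallest p-value was that of Nr4a3, at 1.42 ± 0.39 (adjusted p = 0.997, limma). Nr4a2 was at 1.78 ± 0.64, or 1.17 without KO_acetate 1, and Egr3 at -0.22 ± 0.46. Without KO_control 1, or without KO_acetate 2, 2 of the 7 met the unadjusted threshold. Without WT_acetate 1, 4 did. Without the 3 libraries of low Shank3, 5 did, against 2.45% of all genes, and without the 4 of discordant Y-linked transcripts, 3 of which are WT_acetate libraries, 4 did, against 2.42%. Nr4a3 was then at 1.69 and 1.97. For both treatments 3 of the 7 met it, against 2.31% of all genes, with Egr2 at 1.99 ± 0.89 and Nr4a3 at 1.29 ± 0.42 (adjusted p = 0.877, limma). That count was 1 without KO_control 1, KO_abx_and_acetate 1 or WT_abx_and_acetate 4. It was 3 without the libraries of low Shank3 (2.64% of all genes) and 3 without those of discordant Y-linked transcripts (2.36%). For antibiotics Egr2 was at 1.22 ± 0.92, at 0.86 without the libraries of low Shank3 and at 1.27 without those of discordant Y-linked transcripts, and no member met the threshold in any of these fits. In the other lists, 6 of 20 transcription factors and 8 of 27 effectors had a higher acetate fold in KO at the unadjusted threshold and none a lower one, with Sik1 at 1.59 ± 0.40, Fos at 1.90 ± 0.66 and Per1 at 0.83 ± 0.25. In each of the 3 interaction tests 0% of all genes passed after adjustment, so no difference in response between the genotypes was established for any member.

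Across the 8 groups WT_control had the highest mean of all 7 genes. KO_control or KO_abx had the lowest mean for all but Egr3, whose lowest was KO_acetate at 5.99 ± 0.79 log2 CPM (SD, n = 5). The next group below, WT_abx, differed from WT_control by more than the larger SD of the pair for Egr1, at 8.60 ± 0.43 log2 CPM in WT_abx (n = 4) and 9.17 ± 0.37 in WT_control (n = 6). The same held for Nr4a3, at 5.25 ± 0.30 in WT_abx and 5.58 ± 0.25 in WT_control. No other neighbouring groups in the order of any member differed by more than their spread.

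**Figure D4:**
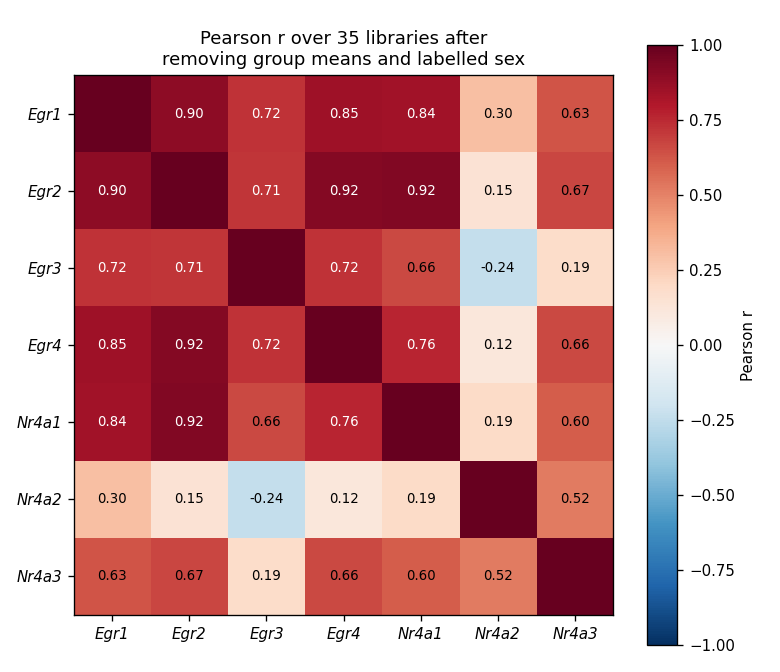
Pearson r between the levels of each pair of Egr and Nr4a genes over 35 libraries, after group means and labelled sex were removed (colour and printed value). Egr2, Egr4, Egr1 and Nr4a1 form a block of r between 0.76 and 0.92, and Nr4a2 is between -0.24 and 0.30 with all but Nr4a3. With KO_acetate 1 left out of r, but not of the fit that gave the residuals, Nr4a2 is between 0.066 and 0.55 with them.

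Apart from group and sex, the members varied together in a graded way. Over the 35 libraries, Pearson r of the residuals was 0.92 for Egr2 with Nr4a1, 0.92 for Egr2 with Egr4 and 0.90 for Egr1 with Egr2. Egr3 was at 0.66 to 0.72 with these genes but at 0.19 with Nr4a3. Nr4a2 followed Nr4a3 (0.52) and was at -0.24 with Egr3 and 0.15 with Egr2. These values were higher with KO_acetate 1 left out of r, though the fit that gave the residuals still held it. Nr4a2 was then at 0.066 with Egr3, 0.44 with Egr2, 0.54 with Egr1, 0.55 with Nr4a1 and 0.63 with Nr4a3 (n = 34). Without the 3 highest and 3 lowest libraries by mean residual of the members, r was 0.88 for Egr2 with Nr4a1 and -0.40 for Egr3 with Nr4a2 (n = 29). Nr4a3 fell there from 0.63 to 0.19 with Egr1, from 0.67 to 0.36 with Egr2 and from 0.66 to 0.36 with Egr4. It also fell from 0.60 to 0.34 with Nr4a1 and from 0.19 to -0.12 with Egr3. KO_acetate 1 was not among the libraries left out there, so the -0.40 still includes it. These values describe libraries that share a tissue and its processing.

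The genes outside the families whose residuals were most like the mean of the 7 were Fos (r = 0.95), Fosb (0.92), Arc (0.91), Junb (0.91) and Midn (0.90). For the Egr genes alone they were Dusp6 (0.94), a phosphatase gene for the kinases upstream, then Arc (0.91) and Fos (0.91). For the Nr4a genes alone they were Sik1 (0.84), a kinase gene downstream of cAMP, then Fos (0.78) and Plk3 (0.77).

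Egr3 and Nr4a2, the members least like the rest over all 35 libraries, were those that moved most with markers of cortical layers and of oligodendrocytes. Among 91 pairs of a member and a marker list, the highest r were 0.72 for Egr3 with 5 upper layer markers and 0.71 for Nr4a2 with 8 oligodendrocyte markers (n = 35). With KO_acetate 1 left out of r, but not of the fit that gave the residuals, they were 0.61 and 0.63 (n = 34). These pairs were picked after all 91 values were seen. With the upper layer list Egr2 was at 0.37 and Nr4a1 at 0.37, and with the oligodendrocyte list Egr2 was at -0.05 and Nr4a1 at 0.06. With the layer 6b and claustrum list Nr4a2 was at 0.43, and at 0.10 without KO_acetate 1. The part of the dissection in these relations was not tested.

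**Figure D5:**
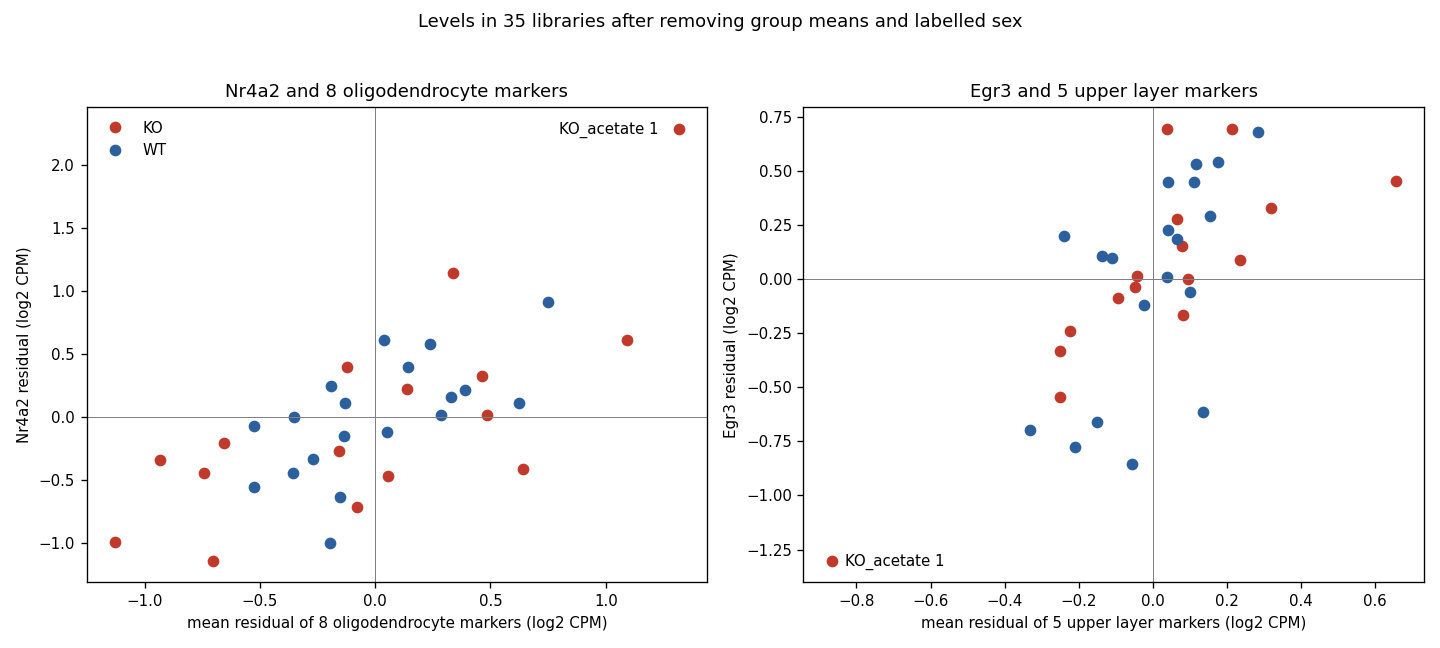
Residuals of Nr4a2 against the mean residual of 8 oligodendrocyte markers (left) and of Egr3 against that of 5 upper layer markers (right), in log2 CPM, with KO in red and WT in blue. KO_acetate 1 lies at the upper right of the Nr4a2 plot and the lower left of the Egr3 plot. With it left out of r, but not of the fit that gave the residuals, r is 0.63 and 0.61.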

How the data were processed

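Bulk RNA of mPFC tissue punches was sequenced as stranded, paired-end libraries (RNeasy extraction, NEBNext Ultra II Directional kit), per the labels' protocols. The authors deposited 1 matrix of log2 values for 14870 genes in 35 libraries, in the form that limma's voom gives: log2 counts-per-million with an offset. The submitters' processing notes name limma without a version. The aligner, the build and the filter on low counts are not named there. Multiplied back by library size, 100% of values were whole reads within 0.01, so read totals could be stated, and intervals on levels cover the spread between libraries only.

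Groups and sex were taken from the labels. Differences were tested with limma 3.58.1 in R 4.3.3: 1 fit of all 35 libraries with 8 group means and labelled sex, an intensity trend in the prior variance, two-sided moderated tests, and Benjamini-Hochberg adjustment over 14870 genes with a threshold of 0.05. That fit made 17 comparisons. Folds are adjusted for sex where groups differ in it. Fits of control libraries alone, of each sex and with libraries left out were alternatives. The fit of sex in control libraries, its interaction with genotype, the control fit without each library, the other lists in the control fit and the likeness without KO_acetate 1 were added after seeing the data. The text names all 7 members, genes among the 3 smallest p-values of each other list in a comparison, both co-repressors and the dimer partners, Shank3, and the 5 genes of highest residual r to the 7 (3 for each family). The marker pairs were picked from all values. The members and all lists were chosen with earlier results of these data known. Exon lengths and positions came from GENCODE vM21 (GRCm38), and the steps were tested on simulated data.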

Additional observations from a re-analysis of the deposited data

Results flagged for a closer look

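The 7 members in each of the 7 groups of 4 or more libraries made 49 sets of values. Of these, 3 held a library far from the rest by Dixon's criterion, which chance gives in about 1 of 20 independent sets. The sets share libraries and the members vary together, so they are not independent. Egr3 was at 4.62 log2 CPM in KO_acetate 1, and the other 4 KO_acetate libraries were at 6.08 to 6.62. The same library had the highest summed striatal, oligodendrocyte, and layer 6b and claustrum markers. Its upper layer markers (5 genes) summed to 275.6 CPM, the lowest of all libraries. Their part in its Egr3 level was not tested.

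Egr3 was at 5.77 log2 CPM in WT_abx_and_acetate 4, the only female of its group, and the other 3 libraries were at 6.42 to 6.46. Nr4a1 was at 7.74 log2 CPM in KO_abx_and_acetate 1, the only male of its group, and the other 3 libraries were at 6.57 to 6.74.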

How the results depend on the processing

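No member passed the adjusted threshold in any comparison of the fit of all libraries, and most alternatives left that count at 0. With array weights 3 members passed for abx_and_acetate against control in WT, where 8.02% of all genes did. With only the groups compared, 1 passed there, against 0.303% of all genes, and 3 passed for KO against WT in control, against 0.155%. In WT females alone 2 passed with abx (1.01% of all genes), 2 with acetate (0.0941%) and 5 with both treatments (3.05%), from 2, 1 and 1 treated libraries, so the last pair of counts compares a single library with the controls. For female against male, 3 passed in the control libraries alone. The fit of control libraries gave 2 to 5 members for KO against WT as each library was left out. The cause of these changes was not tested, apart from the different libraries that enter each fit.

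Folds that changed sign were small or rested on few libraries. For the genotype by acetate interaction, Egr3 was at 0.10 with array weights and 0.71 in females, and between -0.43 and 0.13 as single libraries were left out. For KO against WT in females, Nr4a2 was at 0.018 with abx, Egr3 at 0.24, Nr4a2 at -0.20 and Nr4a3 at -0.28 with acetate, and Egr2 at 0.62 and Nr4a3 at -0.025 with both treatments. With both treatments Egr2 was at 0.42 in males and 0.52 with only the groups compared, and Nr4a3 ranged from -0.18 to 0.45 without single libraries. In KO females, Nr4a2 was at -0.37 with acetate and Egr2 at -0.74 with both treatments, and Egr2 with abx ranged from -0.066 to 1.01 without single libraries. In males, Nr4a2 over treatments was at 0.11, and in WT males Egr2 and Nr4a1 with abx were at 0.13 and 0.082 and Egr3 with acetate at 0.060. The cause was not tested. Re-centring moved no library by more than 0.07 log2.

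The groups held 3 to 6 libraries, which limits the size of difference that the tests detect. No paired analysis was possible because the labels give no replicate numbers that groups share.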
